A study of Arabidopsis thaliana with 12 samples.

Results

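The response to benzyladenine (BA, a synthetic cytokinin) was measured in roots of the Arabidopsis thaliana quintuple mutant bpc1,2,3,4,6, called bpc here. The comparison set the 3 libraries of bpc roots shaken with BA against the 3 libraries of bpc roots shaken with vehicle, which are 6 of the 12 libraries of the series. Its members were the 20776 genes, of 33602 listed, that reached 0.5 RPKM in 3 or more of the 12 libraries; RPKM are reads scaled by gene length and by library depth. The BA groups were bpc and wild type (WT, accession Col-0) after 1 h in liquid medium with 5 µM BA, and the vehicle groups were bpc and WT after 1 h in the same medium with 0.01% of a 5 N NaOH solution. All 4 groups held 3 libraries, each from the cut roots of 12 seedlings aged 10 days, and every group had been moved from plates to shaken liquid. The sources used here do not give the insertion alleles of the mutant, and separate growths for the replicates are not mentioned in the labels. The p-values therefore reflect only how far these libraries differed from one another, and that variation could be technical. In whole roots, fewer cells of a type and less RNA per cell cannot be told apart.

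BASIC PENTACYSTEINE (BPC) proteins are plant transcription factors that bind GAGA repeats in DNA. Cytokinin is perceived by histidine kinase receptors of the AHK family, and the signal passes through phosphotransfer proteins (AHPs) to the type-B response regulators, which are transcription factors. Among the genes that type-B regulators switch on are the type-A response regulators, which act back on the pathway as inhibitors, and the cytokinin oxidases, which break the hormone down. The comparison asks whether this early response runs in the bpc mutant.

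The BA response of bpc roots was broad, and most of it was of modest size. BA raised 880 genes and lowered 905 genes at a limma adjusted p under 0.05 (Benjamini-Hochberg over all 20776 genes), which is 4.24% and 4.36% of the genes tested and 8.59% in both directions together. At least 2-fold changes made up 397 of the rises and 254 of the falls (1.91% and 1.22% of the genes tested). The rises reached further: 105 genes rose at least 4-fold and 25 at least 8-fold, against 11 and 1 among the genes that fell. All fold changes are on the log2(RPKM + 0.5) scale, which understates the change of low genes. It also limits how far a gene can fall from its vehicle level, so the counts by size depend on the scale. With 0.1 in place of 0.5, 442 rises and 316 falls were at least 2-fold, and with 1 in its place 346 and 195. At an unadjusted p under 0.05, 8.35% of the genes tested were higher and 9.91% lower, and such counts in the gene lists are to be read against these shares. The lists and their members were chosen with earlier results of these data known. Their shares therefore describe the listed genes and are no test of enrichment. The median log2 fold change over all genes was 0.00, and the median SE was 0.16. The count of falls was 569, 585 and 591 when bpc BA library 3, 2 or 1 was left out.

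The bpc libraries held 9427912 to 11669456 reads by the steps of their RPKM values, so a single read of a 1 kb gene was worth about 0.1061 RPKM in the shallowest of them. Bpc vehicle 3 stood apart. It had 723 genes more than 1 log2 unit from the mean of the other vehicle libraries of its genotype, against 157 to 318 such genes in the other 5 bpc libraries, and WT vehicle 3 had 656. In bpc vehicle 3 the jasmonate list lay a median of 0.83 log2 units above the other bpc vehicle libraries, the heat-shock list 0.57 above and the type-A regulators 0.02 above. Without it, 786 genes rose and 700 fell, of which 716 and 632 were among the genes called with all libraries. WT BA 1 summed to 86.36% of the read total its values were divided by, against 99.98% or 99.99% in the other 11 libraries, and that divisor, 11653485, was also the divisor of WT vehicle 2. The deposited values of WT BA 1 are too low if the divisor belongs to the other library. Scaling it to its own total moved the median WT log2 fold change over all genes to 0.02, against −0.05 as deposited, and left the log2 fold changes in bpc as they were. The calls in bpc did move, since the test shares its estimate of spread over all 12 libraries. With the scaled library, 968 genes rose and 1023 fell in bpc, against 880 and 905 as deposited. Of the BPC genes, BPC1, BPC2 and BPC6 lay between 0.718 and 2.81 RPKM in the 6 bpc libraries, and their WT group means were 11.7 to 31.9 RPKM. BPC4 averaged 16.9 ± 0.662 RPKM with BA and 16.3 ± 1.68 with vehicle in bpc, against 24.6 ± 1.75 and 23.4 ± 2.88 in WT (SD, n = 3 each). BPC3 was higher in bpc than in WT. It averaged 3.51 ± 0.738 RPKM with BA and 3.16 ± 0.71 with vehicle in bpc, against 2.16 ± 0.472 and 1.38 ± 0.255 in WT. The deposited gene values cannot show a deletion or insertion inside BPC3 or BPC4. None of the 7 BPC genes passed the limma test for BA in bpc, by limma on recovered reads (voom) or at an unadjusted p under 0.05 (0, 0 and 0 genes), and their log2 fold changes ran from −0.28 to 0.13.

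Sequence upstream of 3 type-A regulators is shown because these genes rose with BA in bpc and differ in the motifs they hold. The windows are the 250 bases before the annotated gene start, read 5′ to 3′ on the gene's strand from RefSeq's TAIR10.1 assembly. Capitals mark AGATCT, a core motif of type-B regulators, and GAGAGA or its complement TCTCTC, a repeat of the kind that BPC proteins bind.
ARR7: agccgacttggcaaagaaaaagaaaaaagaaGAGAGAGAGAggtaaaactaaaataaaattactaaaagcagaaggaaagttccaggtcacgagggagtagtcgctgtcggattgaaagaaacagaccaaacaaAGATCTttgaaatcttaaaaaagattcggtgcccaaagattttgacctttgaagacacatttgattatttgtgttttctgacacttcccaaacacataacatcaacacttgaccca
ARR5: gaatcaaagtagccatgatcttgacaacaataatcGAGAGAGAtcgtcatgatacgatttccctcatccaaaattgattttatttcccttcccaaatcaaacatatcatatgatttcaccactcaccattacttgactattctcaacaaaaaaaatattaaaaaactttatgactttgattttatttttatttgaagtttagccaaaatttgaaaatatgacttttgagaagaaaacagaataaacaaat
ARR16: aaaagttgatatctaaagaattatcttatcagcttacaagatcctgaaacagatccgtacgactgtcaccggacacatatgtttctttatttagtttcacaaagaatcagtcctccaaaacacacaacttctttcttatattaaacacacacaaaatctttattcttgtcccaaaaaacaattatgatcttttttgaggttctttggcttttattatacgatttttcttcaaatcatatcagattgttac
The windows lie at chr1:6579315-6579564 on the minus strand (ARR7), chr3:17760951-17761200 on the minus strand (ARR5) and chr2:16969423-16969672 on the plus strand (ARR16).

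The window of ARR7 held both motifs, that of ARR5 held the GAGA repeat, and that of ARR16 held neither. ARR16 had the largest log2 fold change on the log2(RPKM + 0.5) scale. A link between motif and response was not tested. Of the 10 type-A regulators, 1 window held AGATCT and 4 held GAGAGA on either strand (ARR3, ARR5, ARR7 and ARR9). AGATCT, which reads the same on both strands, was in 5.67% of the 20327 windows that could be read for the genes tested. It was in 7.98% of the windows of genes that BA raised in bpc, in 12.0% of those of genes raised at least 4-fold in 4.35% of those of genes that fell and in 6.4% of those of genes that fell at least 2-fold. GAGAGA was in 19.5% of all windows, in 19.8% of those of genes that rose and in 16.6% of those of genes that fell; a window with several or overlapping matches counted once, and the motifs can share bases where a repeat runs into AGATCT. These shares describe letters, and a window without a match says nothing of binding elsewhere or at other forms of the motif.

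All 10 type-A response regulators rose in bpc roots. Their log2 fold changes ran from 1.36 to 4.83 with a median of 3.78, against a median of 0.00 over all genes, and their summed level was 853 to 909 RPKM in the BA libraries, against 115 to 122 RPKM in the vehicle libraries. ARR16 (AT2G40670; chromosome 2, 16969673 to 16972113) had 20.8, 25.9 and 26.2 RPKM with BA, against 0.732, 0.292 and 0.159 RPKM with vehicle. Its vehicle values rest on 5, 2 and 1 reads, and its 494 reads with BA against 8 with vehicle give a ratio of 60.1 per read sequenced (95% exact binomial interval 30.3 to 140, counting error only). The fitted log2 fold change of ARR16 was 4.83 ± 0.25 (SE, limma adjusted p = 1.3e-07). ARR17 (AT3G56380; chromosome 3, 20905264 to 20906397), the regulator closest to ARR16 in rank, had 19.3, 20.2 and 21.8 RPKM with BA, against 0, 0.809 and 0.22 RPKM with vehicle. ARR15 (AT1G74890; chromosome 1, 28131447 to 28133025) had 12.1, 13.4 and 13.8 RPKM with BA, against 0, 0.452 and 0.82 RPKM with vehicle. These 3 genes were close to silent in vehicle roots, with 0 to 5 reads per library.

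ARR5, ARR7, ARR6 and ARR3 started from a measurable level and rose 8-fold or more on the same scale. ARR5 (AT3G48100; chromosome 3, 17758427 to 17760950) had 127, 142 and 120 RPKM with BA, against 6, 5.24 and 6 RPKM with vehicle (log2 4.38 ± 0.28, limma adjusted p = 6.9e-07). ARR7 (AT1G19050; chromosome 1, 6577833 to 6579314) had 134, 150 and 143 RPKM with BA, against 10.3, 10.5 and 11.5 RPKM with vehicle (log2 3.66 ± 0.23, limma adjusted p = 7.6e-07). ARR3 (AT1G59940; chromosome 1, 22065617 to 22067233) had 44.2, 48.3 and 52.3 RPKM with BA, against 2.76, 2.85 and 2.71 RPKM with vehicle. ARR3 had the smallest p of the 10, with a log2 fold change of 3.89 ± 0.13 (limma adjusted p = 5.1e-09). ARR6 (AT5G62920) averaged 104 ± 2.7 RPKM with BA and 12.3 ± 1.54 RPKM with vehicle (SD, n = 3 each), a log2 fold change of 3.04.

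The 3 type-A regulators with the highest vehicle levels changed least. ARR4 (AT1G10470; chromosome 1, 3441988 to 3444360) had 241, 260 and 249 RPKM with BA, against 44.1, 42.7 and 19.3 RPKM with vehicle (log2 2.89 ± 0.33, limma adjusted p = 7.7e-05). The low vehicle value of ARR4 is that of bpc vehicle 3. ARR8 (AT2G41310) averaged 105 ± 7.74 RPKM with BA and 31.3 ± 6.55 RPKM with vehicle, a log2 fold change of 1.74 ± 0.16. ARR9 (AT3G57040) had 49.3, 44 and 44.9 RPKM with BA, against 16.8, 12.8 and 25.3 RPKM with vehicle (log2 1.36 ± 0.26, limma adjusted p = 0.0047). No BA library overlapped a vehicle library for any of the 10 genes, which was also so for 26.3% of all genes tested. ARR6, ARR8 and ARR9 overlap a gene on the opposite strand, and the strand setting used in counting is not among the sources used here.

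**Figure D1:**
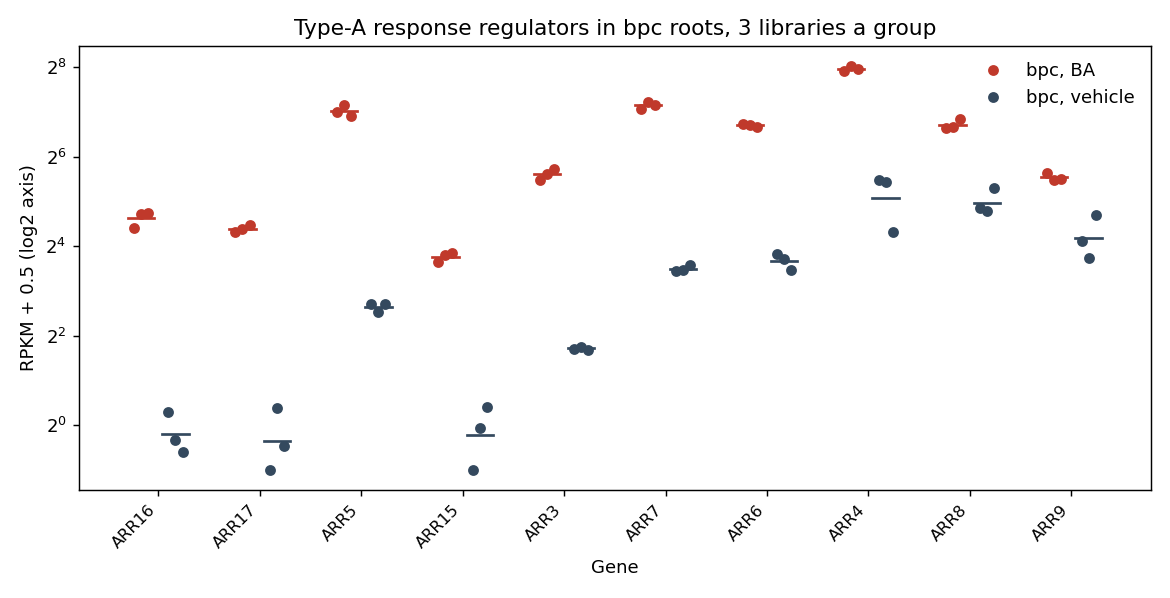
RPKM + 0.5 of the 10 type-A response regulators on a log2 axis, with a point for each of 3 BA and 3 vehicle libraries of bpc roots and a bar at the mean of the log values. ARR16, ARR17 and ARR15 lie under 1 RPKM with vehicle, and ARR4 reaches 241 to 260 RPKM with BA.

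Upstream of these targets, some genes of the signalling chain changed, by less than the type-A regulators. Of 8 receptors and phosphotransfer proteins measured, 3 rose (37.5%, against 4.24% of all genes tested) and none fell by limma (3 were lower at an unadjusted p under 0.05, and voom called 2 lower), with a median log2 of 0.08. The receptor AHK4 (AT2G01830; chromosome 2, 362983 to 369707) had 38.2, 44.2 and 45.5 RPKM with BA, against 19.5, 19.5 and 19.2 RPKM with vehicle. That is a log2 fold change of 1.11 ± 0.12 (limma adjusted p = 5.2e-05), while the receptors AHK2 and AHK3 had −0.42 and −0.38 and did not pass the test. The phosphotransfer protein AHP1 (AT3G21510) averaged 141 ± 15.6 RPKM with BA and 77.4 ± 18.6 RPKM with vehicle (log2 0.88 ± 0.18, limma adjusted p = 0.0067). AHP3 rose by a log2 of 0.64 ± 0.15 (limma adjusted p = 0.018), a call lost without bpc BA 2 or 3 or bpc vehicle 1 (0.59 to 0.66) and in a fit of the bpc libraries alone (adjusted p = 0.055).

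Among the 6 type-B response regulators measured, none rose and 2 fell (33.3%, against 4.36% of all genes tested); at an unadjusted p under 0.05 none were higher and 3 lower, and voom called none higher and 2 lower. The list had a median log2 of −0.36. ARR11 (AT1G67710; chromosome 1, 25376679 to 25379217) had 3.22, 2.72 and 2.23 RPKM with BA, against 5.9, 6.48 and 6.01 RPKM with vehicle (log2 −1.05 ± 0.17, limma adjusted p = 0.0018). ARR1 averaged 27.4 ± 1.37 RPKM with BA and 42.3 ± 10.2 RPKM with vehicle, and its highest value, 53.8 RPKM, was that of bpc vehicle 3. The fall of ARR1 (log2 −0.59, limma adjusted p = 0.032) was lost without any bpc BA library or without bpc vehicle 1 or 3 (−0.64 to −0.41) and with the bpc libraries alone (adjusted p = 0.065), and 1 type-B regulator fell without bpc vehicle 3. Of 9 cytokinin response factors, AP2-type transcription factors of the pathway, 3 rose (33.3%) and none fell (1 lower at an unadjusted p under 0.05, and none by voom). CRF5 (AT2G46310) averaged 6.68 ± 1.53 RPKM with BA and 3.26 ± 0.288 RPKM with vehicle. CRF6 had log2 0.86 ± 0.17 and CRF4 log2 0.70 ± 0.14.

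Most measured genes for breaking down and inactivating cytokinin rose. Of 9 cytokinin oxidases and glucosyltransferases measured, 6 rose (66.7%, against 4.24% of all genes tested) and none fell (no member was lower at an unadjusted p under 0.05 or by voom), and the list had a median log2 of 1.47. CKX3 (AT5G56970; chromosome 5, 23044839 to 23048292), a cytokinin oxidase, had 14.8, 14.6 and 12.5 RPKM with BA, against 0.822, 0.586 and 0.893 RPKM with vehicle (log2 3.52 ± 0.15, limma adjusted p = 4.2e-08). CKX4 (AT4G29740) had 22.4, 29 and 29.8 RPKM with BA, against 2.83, 1.96 and 3.44 RPKM with vehicle, a log2 fold change between those of CKX3 and UGT85A1 (limma adjusted p = 1e-06). CKX5 (AT1G75450), which overlaps genes on both strands, had 16.4, 16 and 15.5 RPKM with BA, against 1.96, 1.89 and 0.97 RPKM with vehicle. All 3 oxidase genes were under 4 RPKM in every vehicle library and above 12 RPKM in every BA library. UGT85A1 (AT1G22400), which encodes a zeatin O-glucosyltransferase, averaged 27.9 ± 2.62 RPKM with BA and 4.65 ± 0.713 RPKM with vehicle (log2 2.47 ± 0.13, limma adjusted p = 1.3e-07). The other rises were UGT76C2, a cytokinin N-glucosyltransferase, at log2 1.47 and CKX6 at 1.01. CKX7, CKX1 and UGT76C1 had log2 0.54, 0.32 and −0.09 and did not pass the test (limma adjusted p = 0.12, 0.41 and 0.84).

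Genes of cytokinin synthesis changed in both directions. Of 15 measured, 4 rose and 5 fell (26.7% and 33.3%, against 4.24% and 4.36% of all genes tested; median log2 −0.17). Of 6 isopentenyltransferases measured, 2 fell and none rose by limma. IPT1, IPT3, IPT5 and IPT7 make the first committed step, while IPT2 and IPT9 modify tRNA and had log2 −0.06 and 0.16. IPT5 (AT5G19040; chromosome 5, 6361776 to 6363713) had 1.47, 1.39 and 1.21 RPKM with BA, against 8.91, 7.83 and 6.91 RPKM with vehicle (log2 −2.17 ± 0.15, limma adjusted p = 1.2e-06). IPT7 (AT3G23630) had 0.226, 0.241 and 0.28 RPKM with BA, 4 reads in each library, against 2.35, 2.04 and 2.48 RPKM with vehicle (log2 −1.89 ± 0.19). The hydroxylases that make trans-zeatin forms rose. CYP735A2 (AT1G67110; chromosome 1, 25061673 to 25065446) had 114, 137 and 128 RPKM with BA, against 10.3, 10.5 and 8.68 RPKM with vehicle, a log2 fold change of 3.62 ± 0.13 (limma adjusted p = 9.4e-09). Its paralogue CYP735A1 also rose (limma adjusted p = 8.1e-05). The LOG enzymes, which release the active base, moved in both directions. LOG2 (AT2G35990) averaged 5.61 ± 0.911 RPKM with BA and 0.272 ± 0.191 RPKM with vehicle (log2 3.00), and LOG7 rose by 0.68, while LOG1, LOG4 and LOG3 had log2 fold changes of −1.72, −0.95 and −0.76 and passed the test as lower. The calls of LOG7 (0.54 to 0.71 without any bpc BA library or bpc vehicle 1) and LOG3 (−0.74 to −0.63 without bpc BA 2 or 3 or bpc vehicle 2 or 3) were lost without those libraries, and that of LOG3 also with the bpc libraries alone (adjusted p = 0.061).

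Of 4 CC-type glutaredoxins whose symbols the reference gives, from 16 loci listed, 2 rose (50%, against 4.24% of all genes tested) and none fell. Nor did any fall at an unadjusted p under 0.05 or by voom. GRXS13 (AT1G03850) averaged 82.2 ± 4.06 RPKM with BA and 22.4 ± 1.9 RPKM with vehicle, and ROXY2 (AT5G14070) averaged 6.64 ± 1.13 RPKM with BA and 0.472 ± 0.072 RPKM with vehicle. Of the 12 listed loci without a symbol, 8 were measured, and all 8 passed as higher (7 by voom), with log2 fold changes of 0.82 to 3.14. The largest were AT4G15660 at 3.14 ± 0.26 (limma adjusted p = 6e-06), AT2G30540 at 2.64 ± 0.24 and AT4G15670 at 2.57 ± 0.27. AT4G15660, AT4G15670, AT4G15680, AT4G15690 and AT4G15700 are similar neighbouring copies, so reads may be split between them. The call of AT4G15700 (1.48) was lost without bpc BA 2 or bpc vehicle 1 (1.41 and 1.26). AT1G06830 (0.82, limma adjusted p = 0.049) was lost with a pseudocount of 1, no filter, no trend, voom or the replicate block (adjusted p = 0.053 to 0.1), and without any 1 of bpc BA 1, 2 or 3, bpc vehicle 1 or 3, WT BA 1 or WT vehicle 1 or 2 (0.68 to 0.85).

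Auxin genes changed in both directions over the lists. Of 25 Aux/IAA repressors, which hold auxin response factors in check, 5 rose and 1 fell (20% and 4%, against 4.24% and 4.36% of all genes tested, so the share that fell lay at that of all genes; median log2 0.12). At an unadjusted p under 0.05, 9 were higher and 3 lower. IAA3 (AT1G04240; chromosome 1, 1128149 to 1129689), which overlaps a gene on the opposite strand, had 43.5, 47 and 44.6 RPKM with BA, against 8.99, 11.1 and 7.6 RPKM with vehicle (log2 2.24 ± 0.14, limma adjusted p = 7.7e-07). IAA2 (AT3G23030; chromosome 3, 8180646 to 8182095) went down, with 33.5, 33.1 and 37.6 RPKM with BA, against 83.4, 77.6 and 90.5 RPKM with vehicle (log2 −1.26 ± 0.11, limma adjusted p = 1.1e-05). IAA17 averaged 237 ± 15.3 RPKM with BA and 108 ± 13.9 RPKM with vehicle, and IAA5 averaged 4.06 ± 0.845 RPKM with BA and 1.33 ± 0.251 RPKM with vehicle.

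Of 14 auxin carriers, 2 rose and 2 fell (14.3% each, against 4.24% and 4.36% of all genes tested; 2 higher and 4 lower at an unadjusted p under 0.05; median log2 −0.08). The efflux carrier PIN4 (AT2G01420) averaged 28.9 ± 1.55 RPKM with BA and 14.2 ± 1.88 RPKM with vehicle (log2 1.01 ± 0.12, limma adjusted p = 0.00015). PIN7 had log2 −0.54 ± 0.09 (limma adjusted p = 0.0017) and PIN3 log2 −0.74 ± 0.15 (limma adjusted p = 0.006), so these efflux carriers did not share a direction. The influx carrier LAX3 (log2 0.41, limma adjusted p = 0.049) kept its call in 10 of 24 alternatives: it was lost with the bpc libraries alone (adjusted p = 0.09), without any bpc library except vehicle 2 (0.29 to 0.44), and without any WT library except vehicle 3 (0.41). Without bpc vehicle 3, 1 carrier rose and 3 fell. Of 14 genes of auxin synthesis and conjugation, 2 rose and 2 fell (14.3% each; 3 higher and 3 lower at an unadjusted p under 0.05; median log2 −0.14). The auxin-conjugating GH3.17 and GH3.6 had log2 0.89 and 1.00, while GH3.2 had −1.10 and TAA1, which makes the auxin precursor, −0.84 ± 0.13 (limma adjusted p = 0.0014).

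Regulators of lateral root initiation were lower where they changed. Of 9 measured, none rose and 4 fell, 44.4% against 4.36% of all genes tested (6 lower and none higher at an unadjusted p under 0.05, 4 lower and none higher by voom), with a median log2 of −0.87, and 7 of 9 were below 0. LBD29 (AT3G58190; chromosome 3, 21548484 to 21549572) had 0.894, 0.858 and 0.885 RPKM with BA, against 3.13, 2.73 and 3.29 RPKM with vehicle (log2 −1.36 ± 0.15, limma adjusted p = 7.9e-05). LBD16 (AT2G42430; chromosome 2, 17663353 to 17665337) had 1.79, 2.65 and 1.92 RPKM with BA, against 5.35, 6.69 and 6.09 RPKM with vehicle (log2 −1.33 ± 0.18, limma adjusted p = 0.00045). Both are LBD transcription factors that act downstream of auxin in founder cells. WOX11 averaged 1.07 ± 0.324 RPKM with BA and 4.78 ± 1.32 RPKM with vehicle (log2 −1.74). The fall of GATA23 (log2 −1.34, limma adjusted p = 0.028) was lost without bpc BA 1 or 3 or bpc vehicle 2 or 3 (−1.33 to −1.03) and with the bpc libraries alone (adjusted p = 0.084), and 3 of the list fell without bpc vehicle 3. In that library the list lay 0.36 log2 units above the other bpc vehicle libraries; its part in the result was not tested beyond that count.

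Ethylene genes changed in both directions, with 4 rises and 5 falls among 20 measured (20% and 25%, against 4.24% and 4.36% of all genes tested; 4 higher and 9 lower at an unadjusted p under 0.05, 4 higher and 7 lower by voom; median log2 −0.19), or 1 rise and 5 falls without bpc vehicle 3. ACS5 (AT5G65800; chromosome 5, 26330746 to 26332812), an enzyme of ethylene precursor synthesis, had 7.17, 8.48 and 5.26 RPKM with BA, against 1.05, 1.25 and 0.813 RPKM with vehicle (log2 2.27 ± 0.19, limma adjusted p = 7.4e-06). On the perception side, the receptor ETR2 (AT3G23150) had 4.21, 3.82 and 4.91 RPKM with BA, against 12.2, 12.2 and 12.1 RPKM with vehicle (log2 −1.40 ± 0.13, limma adjusted p = 1.3e-05). The transcription factor EIL1 (AT2G27050) averaged 4.82 ± 0.922 RPKM with BA and 13.5 ± 2.86 RPKM with vehicle. EBF2, an F-box protein of the same branch that overlaps genes on the opposite strand, had log2 −0.91 ± 0.15.

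Of 11 gibberellin oxidases, 4 rose (36.4%, against 4.24% of all genes tested) and none fell by limma, with a median log2 of 0.36. At an unadjusted p under 0.05, 6 were higher and 2 lower, and voom called 4 higher and 0 lower. Without bpc vehicle 3, 2 rose. GA20OX1 (AT4G25420), an enzyme of gibberellin synthesis, had 4.35, 4.07 and 2.9 RPKM with BA, against 0.658, 0.803 and 0.477 RPKM with vehicle (log2 1.89 ± 0.18, limma adjusted p = 1.9e-05). GA2OX2, which inactivates gibberellins, rose with it by a log2 of 1.57 ± 0.19. The calls of GA20OX2 (log2 0.96) and GA20OX3 (0.79) were weaker: the first was lost without bpc BA 2 or 3 or bpc vehicle 3 (0.89 to 0.94) and the second without any bpc BA library or bpc vehicle 1 or 3 (0.63 to 0.82). Of 13 abscisic acid genes, 1 rose and 1 fell (7.69% each, against 4.24% and 4.36% of all genes tested; 4 higher and 1 lower at an unadjusted p under 0.05; median log2 −0.09). NCED3 (AT3G14440), which makes the committed step of abscisic acid synthesis, averaged 4.81 ± 0.708 RPKM with BA and 1.01 ± 0.109 RPKM with vehicle (log2 1.80 ± 0.17, limma adjusted p = 1.4e-05). The fall of ABI1 (log2 −0.54) was lost without bpc BA 1 or 2 or bpc vehicle 3 (−0.54 to −0.48).

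Of 19 jasmonate genes, 1 rose (5.26%, near the 4.24% of all genes tested) and none fell (none lower at an unadjusted p under 0.05 or by voom; median log2 0.02), and 2 rose without bpc vehicle 3, the library in which this list was highest. The riser was AOC2 (log2 1.01, limma adjusted p = 0.011), lost without bpc BA 3 or bpc vehicle 1 (0.90 and 0.82). Defence genes were lower where they changed, with no rise and 4 falls among 10 measured, 40% against 4.36% of all genes tested (7 lower and none higher at an unadjusted p under 0.05, 3 lower and none higher by voom; median log2 −0.6). PR1, PR2 and PR5, markers of salicylic acid responses, did not reach the level needed to be tested. WRKY54 (AT2G40750; chromosome 2, 17000419 to 17002528) had 1.03, 0.41 and 0.952 RPKM with BA, against 6.24, 6.15 and 6.4 RPKM with vehicle (log2 −2.42 ± 0.21, limma adjusted p = 8.4e-06). PAD3, an enzyme of camalexin synthesis, and the immune regulator PAD4 had log2 −0.84 and −0.54. WRKY40 had 3.01, 3.98 and 5.06 RPKM with BA, against 7.92, 6.88 and 26.9 RPKM with vehicle, the last in bpc vehicle 3; its fall (log2 −1.43) was lost without bpc BA 1 or 2 (−1.26 and −1.43), with no filter, with the bpc libraries alone (adjusted p = 0.12) and with voom (−1.52).

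Uptake genes showed single changes. Of 13 nutrient transporters, none rose and 2 fell, 15.4% against 4.36% of all genes tested (1 higher and 5 lower at an unadjusted p under 0.05, none higher and 3 lower by voom; median log2 −0.32). The phosphate transporter PHT1;4 (AT2G38940) averaged 17.7 ± 2.22 RPKM with BA and 33.6 ± 2.96 RPKM with vehicle (log2 −0.91 ± 0.13, limma adjusted p = 0.00067). The nitrate transporter NRT2.6 had 0.794, 0.548 and 5.26 RPKM with BA, against 7.45, 6.06 and 8.71 RPKM with vehicle. Bpc BA 3 thus lay far above the other BA libraries, and the call of NRT2.6 (log2 −1.98, limma adjusted p = 0.024) was lost without bpc BA 1 or 2 or bpc vehicle 1 or 3 (−1.97 to −1.52) and with the bpc libraries alone (adjusted p = 0.087). Of 14 iron-deficiency genes, none rose (1 at an unadjusted p under 0.05, none by voom) and 1 fell (7.14%), with a median log2 of −0.01. That gene was FIT (AT2G28160; chromosome 2, 12004658 to 12006276), the transcription factor at the head of the iron uptake response, with 8.89, 9.17 and 8.66 RPKM with BA, against 33.8, 32.9 and 28.5 RPKM with vehicle (log2 −1.77 ± 0.13, limma adjusted p = 1.9e-06). Of 12 hypoxia genes, 1 rose and 1 fell (8.33% each, against 4.24% and 4.36% of all genes tested; 1 higher and 5 lower at an unadjusted p under 0.05, 1 higher and 3 lower by voom; median log2 −0.11), or 1 and 2 without bpc vehicle 3. HRE1, which overlaps a gene on the opposite strand, averaged 17.7 ± 1.63 RPKM with BA and 35.3 ± 3.86 RPKM with vehicle, and the rise of HRA1 (log2 0.83) was lost without any bpc BA library or bpc vehicle 1 or 2 (0.74 to 0.86).

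No gene of 3 further lists passed by limma or voom: 9 heat-shock genes (0 at an unadjusted p under 0.05; median log2 −0.02), 5 flavonoid genes (1 lower at an unadjusted p under 0.05; 0.07) and 5 KNOX and floral homeotic regulators (0 at an unadjusted p under 0.05; −0.01). HSP70 (AT3G12580) averaged 94 ± 15.6 RPKM with BA and 91.1 ± 22.5 RPKM with vehicle, and the flavonoid enzyme TT4 averaged 633 ± 72.9 RPKM with BA and 554 ± 154 RPKM with vehicle. KNAT6 averaged 6.98 ± 0.43 RPKM with BA and 7.45 ± 0.539 RPKM with vehicle. STM, AG, STK, SEP1, SEP3, AP1 and FLC did not reach the level needed to be tested.

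Some cell type markers passed the test after 1 h. Of 10 root hair markers 2 rose (20%, against 4.24% of all genes tested; 2 higher and 2 lower at an unadjusted p under 0.05, 2 higher and 0 lower by voom; summed level 302 to 308 RPKM with BA and 255 to 308 RPKM with vehicle), of 9 endodermis markers 2 fell (22.2%, against 4.36% of all genes tested; 0 higher and 3 lower at an unadjusted p under 0.05, 2 lower by voom; 513 to 540 and 546 to 586 RPKM), and of 11 xylem markers 1 rose (9.09%; 1 higher and 1 lower at an unadjusted p under 0.05, 0 by voom; 212 to 229 and 210 to 259 RPKM). Of 8 root cap and stem cell niche markers 1 fell (12.5%; 0 higher and 3 lower at an unadjusted p under 0.05, 1 lower by voom; 42.6 to 50.8 and 47.2 to 65.8 RPKM), and of 12 markers of dividing cells 1 fell (8.33%, and 1 at an unadjusted p under 0.05 and by voom; 164 to 179 and 172 to 182 RPKM). None of 6 phloem markers (47 to 49.3 and 33.4 to 46.9 RPKM; 1 higher and 2 lower at an unadjusted p under 0.05, 0 by voom) or of 10 markers of green shoot tissue (135 to 155 and 120 to 167 RPKM; 0 at an unadjusted p under 0.05 and by voom) passed. The photosystem gene PSBO1 averaged 39 ± 2.87 RPKM with BA and 38 ± 3.14 RPKM with vehicle, so its transcripts were present in both groups. The tissue they came from was not tested. SCR, the endodermis regulator, had log2 −0.70 ± 0.14 (limma adjusted p = 0.007). The calls of MYB36 in the endodermis list (log2 −0.53; −0.54 to −0.41 without any bpc BA library, bpc vehicle 2 or 3, or WT BA 3), BRN2 in the root cap list (−0.74; −0.70 to −0.52 without bpc BA 2 or bpc vehicle 1 or 3) and CYCB2;1 among the dividing markers (−0.67; −0.68 to −0.56 without bpc BA 2 or 3 or bpc vehicle 3) were each lost without those libraries. So were the root hair regulators RSL4 (0.65; 0.54 to 0.61 without bpc BA 1 or 2 or bpc vehicle 1) and RHD6 (0.62; 0.46 to 0.68 without any bpc library except vehicle 3 or any WT library except vehicle 2 and 3), and the xylem regulator VND6 (0.66; 0.54 to 0.66 without bpc BA 2 or 3, bpc vehicle 1 or 2, or WT BA 1 or 2). The calls of BRN2, RHD6 and VND6 were also lost with the bpc libraries alone (adjusted p = 0.086, 0.072 and 0.079). The phloem gene SUC2 (log2 0.80) passed in 1 of 24 alternatives, without bpc vehicle 2, at 1.02.

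**Figure D2:**
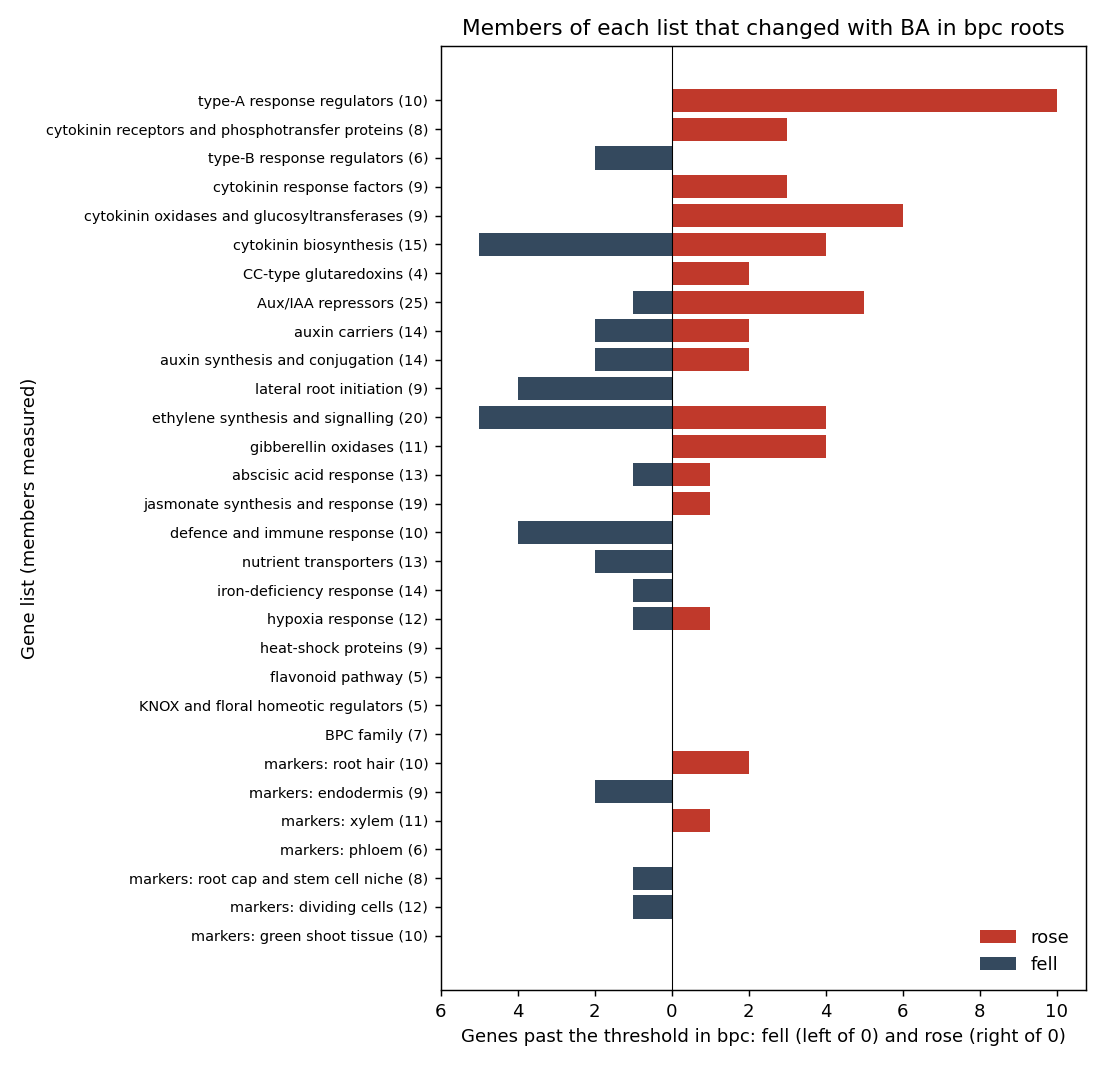
Number of members of each gene list that rose (right of 0) or fell (left of 0) with BA in bpc roots at a limma adjusted p under 0.05; the number of members measured stands in parentheses. The type-A regulators are the list in which every measured member rose, 10 of 10, and the heat-shock, flavonoid, KNOX, BPC, phloem and green shoot lists have no bar.

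Beyond the lists, the largest rises included enzymes as well as type-A regulators. AT5G47980 (chromosome 5, 19428888 to 19430517), annotated as an HXXXD-type acyl-transferase, had 140, 166 and 199 RPKM with BA, against 6.19, 8.47 and 6.09 RPKM with vehicle (log2 4.51 ± 0.20, limma adjusted p = 4.2e-08). The cytochrome P450 gene CYP82F1 (AT2G25160; chromosome 2, 10708993 to 10711281) had 174, 183 and 203 RPKM with BA, against 13.4, 13.9 and 12.9 RPKM with vehicle (log2 3.75 ± 0.12, limma adjusted p = 3e-09). The spread between its libraries was small next to this change. AT4G25410 (chromosome 4, 12985661 to 12987521), a bHLH transcription factor by annotation, had 56.1, 65.7 and 74.3 RPKM with BA, against 2.53, 3.24 and 5.5 RPKM with vehicle. AT2G43470 averaged 16.1 ± 1.76 RPKM with BA and 0.634 ± 0.316 RPKM with vehicle (log2 3.90). AT1G33740 (chromosome 1, 12230076 to 12230525), a transcribed pseudogene in RefSeq, had 21, 31 and 21 reads with BA, against 1, 0 and 0 reads with vehicle, a ratio of 71.1 per read sequenced (95% exact binomial interval 12.4 to 2850, counting error only).

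The largest falls were of genes at low to moderate levels. GRI (AT1G53130; chromosome 1, 19794723 to 19795544), which encodes a secreted protein involved in reactive oxygen signalling, had 1.15, 0.667 and 1.03 RPKM with BA, against 12.8, 11.6 and 12.1 RPKM with vehicle (log2 −3.14 ± 0.19, limma adjusted p = 5.3e-07). LAF1 (AT4G25560; chromosome 4, 13052503 to 13053742), a MYB transcription factor, had 1.82, 2.55 and 1.3 RPKM with BA, against 14.7, 17.2 and 15.9 RPKM with vehicle (log2 −2.81 ± 0.22, limma adjusted p = 3.3e-06). Both overlap the end of a gene on the opposite strand. ERF53 (AT2G20880; chromosome 2, 8985959 to 8987302), an AP2-type transcription factor, had 0.266, 0.142 and 0.164 RPKM with BA, against 3.41, 3.55 and 2.76 RPKM with vehicle. Its BA values rest on 4, 2 and 2 reads, so its level in BA roots was near the lowest that this depth can show. AT1G27670, of no described function in the reference, had 1.48, 1.09 and 0.803 RPKM with BA, against 8.51, 9.1 and 8.69 RPKM with vehicle (log2 −2.53 ± 0.18).

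AT1G05650 (chromosome 1, 1690002 to 1692179), a pectin lyase-like gene, had 16.1, 15.3 and 14.4 RPKM with BA, against 59.8, 62.6 and 73.4 RPKM with vehicle (log2 −2.06 ± 0.15, limma adjusted p = 1.5e-06). Its level was the highest among the 10 largest falls. The uncharacterized genes AT5G38790 and AT4G21902 had log2 −2.12 ± 0.39 and −2.06 ± 0.34. Their vehicle values spread, with 10.5 RPKM for AT5G38790 and 9.2 RPKM for AT4G21902 in bpc vehicle 3. The tRNA-Ala gene AT4G12065 entered the 10 by fold change, but it had 0, 0 and 0 reads with BA, against 1, 2 and 2 reads with vehicle. The 95% exact binomial interval of its ratio, BA over vehicle, runs from 0 to 1.06 and so includes no change. It lies wholly inside a gene on the opposite strand. The main limma fit called it (limma adjusted p = 0.0047), and voom did not (voom adjusted p = 0.069).

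**Figure D3:**
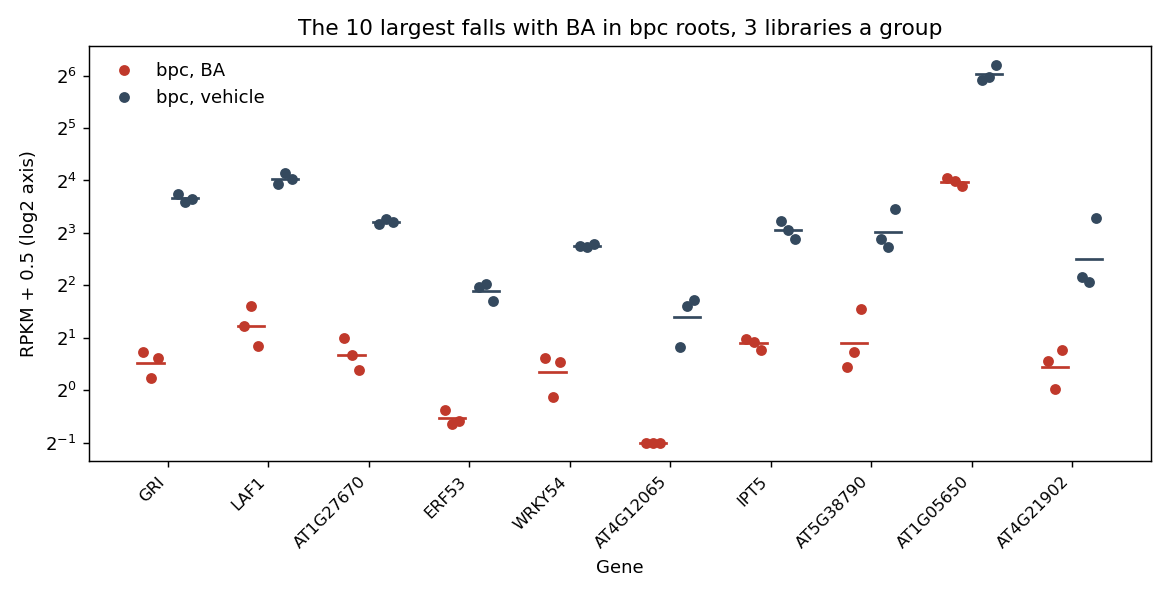
RPKM + 0.5 on a log2 axis for the 10 largest falls with BA in bpc roots, with a point for each of 3 BA and 3 vehicle libraries and a bar at the mean of the log values. GRI and LAF1 drop to between 0.667 and 2.55 RPKM with BA, and AT4G12065 lies at 0 in all BA libraries.

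The response of bpc roots had the direction of that of WT roots for most genes called. Of the 880 genes that rose in bpc, 874 (99.3%) had the same sign in WT and 659 (74.9%) also passed the test there; of the 905 that fell, 897 (99.1%) had the same sign and 685 (75.7%) passed. Median log2 fold changes of the risers were 0.93 in bpc and 0.84 in WT, and of the genes that fell −0.79 in bpc and −0.74 in WT. Genes chosen by their WT test showed the reverse order of size: 799 risers had a median of 0.93 in bpc and 0.98 in WT, and 1004 genes that fell had −0.64 in bpc and −0.75 in WT. These WT medians include WT BA 1 as deposited. With that library scaled to its own total, the WT medians were 0.91 and −0.67 for the genes chosen in bpc and 1.04 and −0.69 for those chosen in WT. The WT test called 3.85% of genes as higher and 4.83% as lower. Over the 2243 genes called in either genotype, the log2 fold changes had a Pearson r of 0.949, a description across genes, which are not independent replicates.

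**Figure D4:**
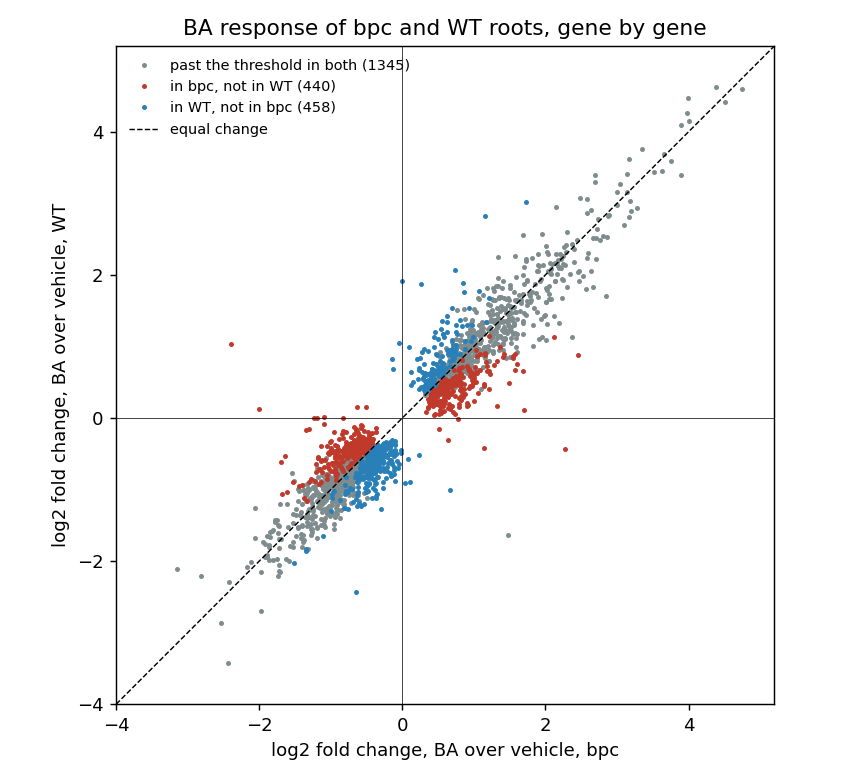
Log2 fold change with BA in bpc roots (x axis) against that in WT roots (y axis) for the 2243 genes called in either genotype. The dashed line marks equal change. ARR16 (4.83 in bpc and 5.31 in WT) lies beyond the top of the y axis and is not visible. Of these, 1345 were called in both, 440 in bpc and not in WT, and 458 in WT and not in bpc, and the points follow the dashed line.

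The difference itself was tested for every gene as bpc response minus WT response. It passed for 1 gene (0.00481% of those tested), 338 genes (1.63%) had an unadjusted p under 0.05, and voom called 0. The 95% interval of the difference lay within 1 log2 unit of 0 for 711 (80.8%) of the genes that rose in bpc and for 783 (86.5%) of those that fell, with a median SE of 0.23 and 0.22. That margin is wider than the median change of these genes in bpc (0.93 and −0.79), so genes within it need not respond alike. A p that misses the threshold does not show equal responses.

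For the 57 cytokinin genes measured, the differences ran from −0.52 to 0.56. ARR16 had a log2 fold change of 4.83 in bpc and 5.31 in WT (difference −0.48, 95% interval −1.23 to 0.28), and ARR5 had 4.38 in bpc and 4.62 in WT (difference −0.24, −1.09 to 0.61). The intervals of 4 of the 57, ARR3, UGT85A1, ARR12 and LOG4, excluded 0 before adjustment. ARR3 averaged 48.2 ± 4.04 and 2.77 ± 0.068 RPKM with BA and vehicle in bpc, against 40.9 ± 4.26 and 3.47 ± 0.704 RPKM in WT, a difference of 0.50 (0.09 to 0.91, unadjusted p = 0.02 and adjusted p = 1 by limma). UGT85A1 had log2 2.47 in bpc and 1.91 in WT, a difference of 0.56 (0.17 to 0.95, unadjusted p = 0.0084 and adjusted p = 1 by limma). The type-B regulator ARR12 had log2 0.13 in bpc and 0.64 in WT, a difference of −0.52 (unadjusted p = 0.03 by limma), and LOG4 had −0.95 in bpc and −1.48 in WT, a difference of 0.53 (unadjusted p = 0.041 by limma). With WT BA 1 scaled to its own total, the differences were 0.43 for ARR3, 0.49 for UGT85A1, −0.59 for ARR12 and 0.48 for LOG4, and the interval of LOG4 (−0.04 to 0.99) then included 0.

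GRI, the largest fall in bpc, averaged 0.949 ± 0.25 and 12.2 ± 0.583 RPKM with BA and vehicle in bpc, against 2.93 ± 0.916 and 14.1 ± 2.24 RPKM in WT (difference −1.03, 95% interval −1.62 to −0.44, unadjusted p = 0.0024 and adjusted p = 1 by limma), and its BA values in bpc rest on 11, 6 and 8 reads. ERF53 averaged 0.19 ± 0.066 and 3.24 ± 0.421 RPKM with BA and vehicle in bpc, against 0.187 ± 0.152 and 6.87 ± 1.59 RPKM in WT. Its BA values rest on 4, 2 and 2 reads in bpc and 1, 6 and 2 reads in WT, too few to compare the size of its fall between the genotypes.

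**Figure D5:**
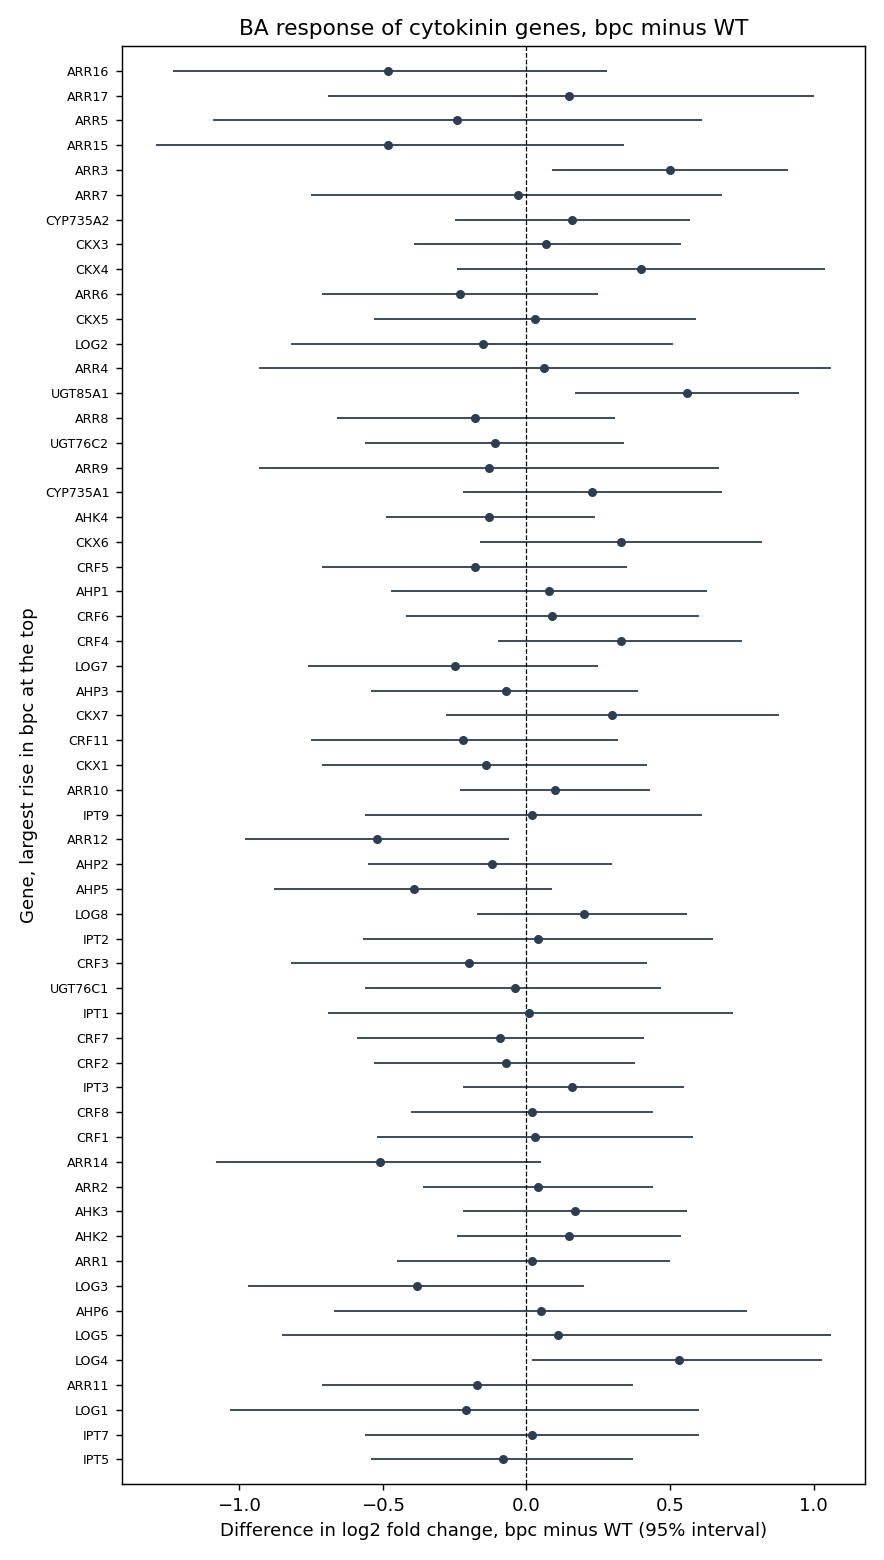
Difference in log2 fold change with BA, bpc minus WT, with 95% intervals, for all 57 measured genes of the 6 cytokinin lists in order of their change in bpc. Points run from −0.52 to 0.56, and 4 intervals, of ARR3, UGT85A1, ARR12 and LOG4, exclude 0.

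In the authors' deposited table for BA in bpc, 2087 genes were higher and 2612 lower at an FDR under 0.05, of 19706 genes. Of the 880 rises and 905 falls found by limma, 853 and 885 are in that table, and 851 and 883 of them have an FDR under 0.05 and the same direction there.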

How the data were processed

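RNA of whole roots was sequenced in 12 libraries of 4 groups, read from the sample titles, with a stranded mRNA kit per the labels' protocols. Per the submitters' processing notes, the tools included edgeR 3.0, featureCounts, SAMtools 0.1.18, Bowtie 1.1.0, TopHat2 2.0.11 and FastQC, with build TAIR10. The authors deposited RPKM for 33602 genes in all libraries. Their deposited table for BA in bpc holds, per the file headers, log2 values (fold change, mean CPM), a likelihood-ratio score per gene, p-values and FDR. All 25442 genes above 0 had RPKM that were whole reads (within 0.0001 read) of divisors of 9427912 to 13951019 reads per library.

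limma 3.58.1 (R 4.3.3) was fitted with an intensity trend to log2(RPKM + 0.5) of 20776 genes in all 12 libraries, with 4 group coefficients, 8 residual degrees of freedom and Benjamini-Hochberg adjustment at 0.05. Fits were tested on simulated data with known changes. The simulation gave every gene the same dispersion and held no outlying or wrongly scaled library, so it says nothing of those. Alternatives varied the pseudocount (0.1, 1), the filter (none, 2 RPKM), the scaling, the trend, the libraries and a replicate block; voom on recovered reads, a rescaled WT BA 1 and the omission of both vehicle libraries numbered 3 were added after seeing the data. Named genes were the 10 largest rises and 10 largest falls past the threshold with groups that do not overlap and a mean of at least 2 RPKM, all type-A and BPC genes, up to 4 called members of each of 30 lists with the smallest p, and genes whose difference passed. AHK2, AHK3, ARR12, CKX1, CKX7, UGT76C1, IPT2, IPT9, UGT76C2, CKX6, CYP735A1, LOG1, LOG3, LOG4, LOG7 and glutaredoxin loci without a symbol were named after their values were seen. Lists held 380 loci, of which 12 had no agreeing symbol in the reference and 327 were measured. The members and lists were chosen with earlier results of these data known. Gene positions come from RefSeq's TAIR10.1 annotation, since the table gives none.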

Additional observations from a re-analysis of the deposited data

Results flagged for a closer look

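The one gene whose BA response passed the test of a difference between bpc and WT was AT3G25221 (chromosome 3, 9184688 to 9184792), a short uncharacterized gene of 105 bases, with a fitted difference of 3.11 (limma adjusted p = 0.02). It had 1, 1 and 1 reads in the bpc BA libraries and 0, 0 and 0 in bpc vehicle, against 0, 0 and 0 in WT BA and 1, 1 and 2 in WT vehicle. With at most 2 reads in any library, the fitted difference depends on the pseudocount and no fold is given. The call was lost at a pseudocount of 1 (1.97, adjusted p = 0.071), without any one of the bpc or WT BA libraries (3.06 to 3.16) and with voom (3.31, adjusted p = 1).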

How the results depend on the processing

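Alternatives other than leaving out a library gave 829 to 986 rises and 816 to 1070 falls in bpc, and 346 to 449 rises and 195 to 316 falls of at least 2-fold. Leaving out a library gave 608 to 999 rises, 569 to 1056 falls, 368 to 413 and 204 to 284 of at least 2-fold, and 0 to 1 genes with a difference. The difference passed for 2 genes at a pseudocount of 0.1, 0 at a pseudocount of 1, 4 with no filter, 0 with a minimum of 2 RPKM, 2 with no trend, 0 by voom and 2 without both vehicle libraries numbered 3; the cause was not tested. Voom also called 849 of the 880 rises and 844 of the 905 falls. Same-numbered bpc libraries deviated together with r of 0.083, 0.1 and 0.109, and every library correlated best with its own number, a hint from the data and not the design; the replicate block gave 946 rises, 1011 falls and 1 difference. Of 85 named genes called in bpc, 66 kept the call in every alternative that could be fitted and 19 lost it in at least 1; SUC2 gained it in 1. No filter lost HRA1, LAX3, MYB36, RHD6, VND6 and WRKY40 (adjusted p of 0.05 to 0.068), and no trend lost LAX3, MYB36 and RHD6 (0.053 to 0.071). Of 2160 list counts and medians, 200 moved. Depth limits what can be seen for genes below about 1 RPKM, where few reads were counted.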

Other observations

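Annotation families outside the lists also changed in bpc roots. Families were the product names shared by at least 30 tested genes, 53 in all, and those described were chosen after their values were seen. SAUR-like genes, small auxin-responsive genes, had the highest share called: of 36, 14 rose and 5 fell (52.8%, against 8.59% of all genes tested). SAUR29 rose by a log2 of 2.66 and SAUR9 by 1.96, while AT5G20820 had −1.73. HXXXD-type acyl-transferases had 9 rises and 4 falls among 42 (31.0%), among them AT5G47950 at log2 2.01 beside AT5G47980 at 4.51. Of 82 bHLH genes, 12 rose and 11 fell (28.0%), with AT5G51780 at 3.14 and AT2G43140 at −1.74.

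Over the 53 families, 22 had more rises than falls, 25 more falls than rises and 6 equal numbers. Cysteine/Histidine-rich C1 domain genes had 2 rises and 29 falls among 107 (29.0%), with a median log2 of −0.41 over all 107 and AT5G40590 at −1.81. Pectin lyase-like genes had 2 rises and 12 falls among 52 (26.9%), and peroxidases 2 rises and 10 falls among 54 (22.2%). Of all genes tested, 4.24% rose and 4.36% fell. Major facilitator genes had 17 rises and 5 falls among 101 (21.8%), including AT3G45700 at 2.46, and MATE efflux genes 9 rises and 4 falls among 40 (32.5%). Histone genes had 0 calls among 32 by limma, against 8.59% of all genes tested in both directions together.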
